A study of Mus musculus with 16 samples.

Results

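Cyclins and proliferation genes are described here in RAW264.7 cells, an established mouse macrophage line that divides in culture. The members were 10 genes, Ccnd1, Ccnd2, Ccnd3, Ccne1, Ccne2, Ccna2, Ccnb1, Cdc25a, Pcna and Mki67, chosen by name and not by their values. Every array probe carrying 1 of these gene names was taken, 15 probes in all, and 8 of the 10 genes were bright enough to be among the 15877 genes tested. The 16 arrays form 4 conditions of 4 replicates each. Cells were seeded with 10% serum and then held in 0.5% serum for 24 h, in all conditions alike. They were next treated for 60 min with 20 µM cordycepin (3′ deoxyadenosine) or its vehicle DMSO. Lipopolysaccharide (LPS, 1 µg/ml) was then added to 2 of the 4 conditions for a further 60 min, so that every culture was lysed after 120 min of drug or vehicle. The conditions are named DMSO, cordycepin, LPS+DMSO and LPS+cordycepin. Replicates with the same number came from the same culture day, each day being a separate culture of this single line. Replicates 1 and 2 were hybridised on slide 1, and replicates 3 and 4 on slide 2.

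Cyclins are the regulatory partners of the cyclin-dependent kinases (CDKs), and their mRNAs and proteins come and go as a cell passes through its division cycle. D-type cyclins respond to growth factors and act with Cdk4 and Cdk6 in the G1 phase, E-type cyclins act with Cdk2 at entry into S phase, cyclin A2 acts through S and G2, and cyclin B1 acts with Cdk1 at mitosis. Cordycepin is converted inside the cell to a nucleotide that terminates growing poly(A) tails, and the comparisons below ask how the mRNAs of these genes responded to the drug, with and without LPS, within 120 min. The arrays measure mRNA per unit of total labelled RNA, so fewer dividing cells and less mRNA in each dividing cell cannot be told apart.

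Cdc25a fell with cordycepin in LPS-treated and in resting cells, and Ccnd3 rose with cordycepin in resting cells. Cdc25a encodes a phosphatase that removes inhibitory phosphates from CDKs, and Ccnd3 encodes cyclin D3. Read by their brightest probes, no member passed the test with LPS, and none had a fitted change of 2-fold in any comparison. The short sequences that the 2 changed genes were measured with are shown first, because cordycepin acts where poly(A) tails are added and because the letters AATAAA, the usual polyadenylation signal, occurred in 2 of the 15 member probes, those of Cdc25a and the brighter probe of Ccnd3. The same letters, searched on the probe's strand only, were held by 13.5% of the 21597 probes kept (2906 probes). The count of 2 among 15 is near this share, and a part of these letters in the changes was not tested. The 30 bases around them are given here with AATAAA in capitals, as printed in the array files.

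Cdc25a, bases 31 to 60 of probe A_65_P05252 (chr9:109796331-109796390, mm9, plus strand): agttgcaggctctgcaAATAAAggtgatct

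Ccnd3, bases 29 to 58 of probe A_55_P2041075 (chr17:47736579-47736638, mm9, plus strand): tcctgctgccttAATAAAgatttcagaata

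The promoter of Cdc25a is shown as well, because Cdc25a is a known target of the E2F transcription factors that drive entry into S phase. RefSeq promoter sequences (GRCm38.p6, from 250 bases before to 50 bases after the start of transcription) were matched by symbol for 6 of the 10 members, with 7 promoters, while Ccnd1, Ccnd2, Ccne2 and Ccna2 had none in the table used. The letters TTTCCCGC, TTTCGCGC, TTTGCCGC and TTTGGCGC were searched on both strands as an E2F motif, and they were found in 2.26% of all 32851 promoters (744 promoters). Of the member promoters, that of Cdc25a held a match, TTTGGCGC, beginning 67 bases before the start. The CCAAT motif (CCAAT or, on the other strand, ATTGG) was found in 37.4% of all promoters and in those of Pcna, Mki67, Cdc25a, Ccnb1 and 1 of the 2 of Ccnd3. Neither motif overlaps the other in the stretch below, where both are in capitals. A match of letters is a description of the sequence and not a measured binding site.

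Cdc25a promoter, the 150 bases before the start (chr9:109875429-109875578, GRCm38.p6, plus strand): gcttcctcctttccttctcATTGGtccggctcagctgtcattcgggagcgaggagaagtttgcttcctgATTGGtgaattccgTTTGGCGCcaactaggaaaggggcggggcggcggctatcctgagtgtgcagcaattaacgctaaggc

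Between 37.1% and 51.2% of the 59305 spots of an array were well above background, the software's own call. All 9 macrophage markers looked for (such as Csf1r, Cd68, Itgam and Lyz2) were bright enough to be tested, against 0 of 5 fibroblast and 0 of 4 epithelial markers, 2 of 4 T cell markers and 1 of 3 B cell markers. The B cell gene was Cd79a, which was 2.63 higher on the log2 scale in LPS+cordycepin than in LPS+DMSO (SE 0.31, limma adjusted p = 1.26e-05), while the defining B cell marker Ms4a1 was well above background on 0 arrays. The part of Cd79a in the results below was not tested.

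DMSO replicate 2 stood apart in these genes. Set against the mean of the other 3 DMSO arrays, it was lower for 8 of the 8 tested members, with a median difference of -0.56 on the log2 scale. Across 140 further cell cycle genes, 110 were lower on that array, with a median of -0.52, while over all 15877 genes the median was 0.00 and 50.2% were lower. Its differences over all genes were also the most spread, with an SD of 0.53 against 0.23 to 0.44 on the other arrays. On the other 15 arrays the members' median difference from their own condition lay between -0.13 and 0.28, the highest being DMSO replicates 1, 3 and 4, which are each compared with a set that holds replicate 2. Results of the members are therefore given with and without this array where they rest on it. For the other cell cycle genes this is done for counts and the median only. The array was singled out by the values of these same genes, so an adjusted p without it is a description and not separate support. What set the array apart was not tested.

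**Figure D1:**
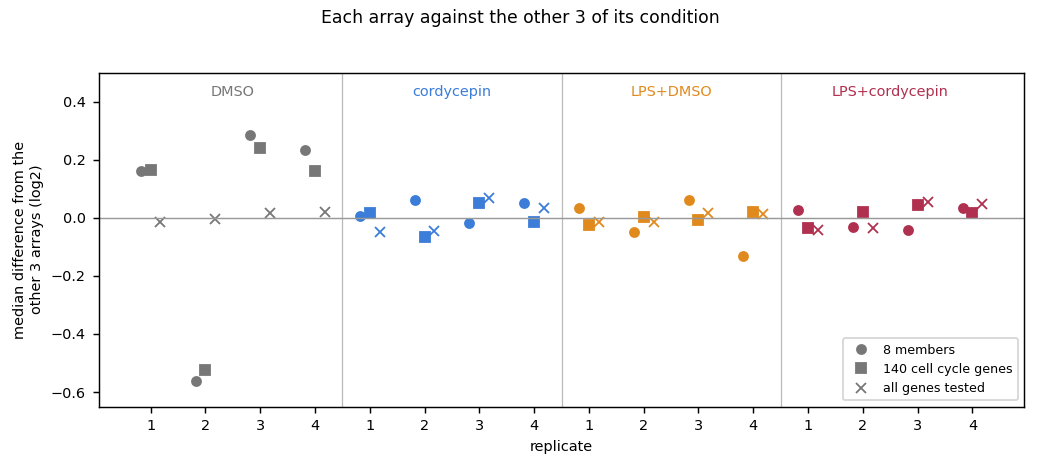
Median log2 difference of each array (x axis, replicate within condition) from the mean of the other 3 arrays of its condition (y axis), for the 8 tested members (circles), 140 other cell cycle genes (squares) and all genes tested (crosses). DMSO replicate 2 lies at -0.56 for the members and -0.52 for the cell cycle genes but at 0.00 for all genes.

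Cyclin D1, encoded by Ccnd1, couples growth factor signals to the start of the cycle. Its 1 probe (chr7:152116202-152116261, mm9, minus strand) read 13.89, 13.10, 13.38 and 13.17 in DMSO replicates 1 to 4 on the scale of log2 scaled signal, and 13.98, 13.95, 13.73 and 13.62 in cordycepin. It read 13.82, 13.45, 13.31 and 13.10 in LPS+DMSO, and 13.99, 13.92, 13.59 and 13.62 in LPS+cordycepin. In every condition the day of replicate 1 was the highest, so that the conditions overlapped although each day's cordycepin culture exceeded its own vehicle culture. The change with cordycepin was 0.44 on the log2 scale in resting cells (SE 0.18, limma adjusted p = 0.127, 4 of 4 days) and 0.36 in LPS-treated cells (SE 0.18, adjusted p = 0.214, 4 of 4 days). Neither passed the test as fitted, and both passed with the culture day as a replicate block, with limma adjusted p = 0.0183 and 0.0403. With the slide as a block the first passed and the second did not (adjusted p = 0.0422 and 0.0871). Between LPS+DMSO and DMSO the difference was 0.03 (SE 0.18).

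Cyclin D2, encoded by Ccnd2, was dim. Its 1 probe (chr6:127098696-127098755, mm9, minus strand) was well above background on 12 of 16 arrays, 3 in each condition, and it was not among the genes tested. On the log2 scale it read 6.35, 6.52, 5.84 and 5.54 in DMSO replicates 1 to 4 and 6.39, 4.70, 5.93 and 5.54 with cordycepin alone. With LPS it read 6.26, 5.38, 5.87 and 5.31 in vehicle and 6.42, 6.48, 5.88 and 5.48 with the drug. The 4 conditions overlapped throughout.

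Cyclin D3, encoded by Ccnd3, rose with cordycepin in resting cells. Its brighter probe read 13.12, 12.76, 13.29 and 13.37 in DMSO and 13.53, 13.57, 13.61 and 13.47 in cordycepin. All 4 cordycepin arrays were above all 4 DMSO arrays, the closest pair lying on replicate 4. The increase was 0.41 on the log2 scale, 1.33-fold (SE 0.11, 95% interval 0.17 to 0.65, limma adjusted p = 0.0204, 4 of 4 days). Part of this size came with DMSO replicate 2, for without that array the increase was 0.29 (SE 0.09, adjusted p = 0.0339). It was 0.61 within slide 1 and 0.21 within slide 2 (adjusted p = 0.0800 and 0.406, with 2 arrays a condition). In 5 of 20 limma fits with an array or a whole day left out the call did not hold, with adjusted p of up to 0.121. With replicate 2 left out in all conditions the increase was 0.28 (adjusted p = 0.0986).

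In LPS-treated cells the same Ccnd3 probe read 13.07, 13.00, 13.08 and 13.09 without the drug and 13.27, 13.29, 13.35 and 13.56 with it. These groups did not overlap either, and the difference was 0.31 (SE 0.11, limma adjusted p = 0.0716, 4 of 4 days), short of the threshold. It passed with the slide as a block (adjusted p = 0.0374) and without DMSO replicate 2 (0.010), but not with the replicate block (0.0520). A second Ccnd3 probe 312 bases upstream (A_51_P238448, chr17:47736267-47736326) read between 11.86 and 12.15 in DMSO and between 12.26 and 12.39 with cordycepin alone, and with LPS between 11.70 and 12.02 in vehicle and between 12.12 and 12.42 with the drug. It passed in both comparisons when each probe was tested on its own, by 0.34 in resting cells (SE 0.10, adjusted p = 0.0254) and 0.36 in LPS-treated cells (SE 0.10, adjusted p = 0.0180). Without DMSO replicate 2 these differences were 0.31 (adjusted p = 0.0596) and 0.36 (adjusted p = 0.0144).

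Cyclin E1, encoded by Ccne1, did not pass the test in any comparison. Its bright probe (chr7:38882937-38882960, a 24-base annotated stretch of a 60-base probe, mm9, minus strand) read 13.16, 12.94, 13.38 and 13.28 in DMSO and 13.52, 13.45, 12.85 and 13.30 with cordycepin alone. With LPS it read 13.46, 13.17, 13.32 and 13.03 in vehicle and 13.37, 13.27, 13.16 and 13.23 with the drug. The conditions overlapped, and the 95% interval of the change with cordycepin was -0.21 to 0.39 in resting cells and -0.29 to 0.32 in LPS-treated cells. A second Ccne1 probe (A_66_P125327, chr7:38885574-38885633) read between 8.19 and 8.89 in DMSO and between 9.0 and 9.1 with cordycepin alone, without overlap, and with LPS between 8.60 and 8.80 in vehicle and between 7.76 and 9.33 with the drug. Its change with cordycepin in resting cells was 0.39 (SE 0.24, limma adjusted p = 0.323), and 0.24 without DMSO replicate 2. The related Ccne2, which encodes cyclin E2, was well above background on 0 of 16 arrays (chr4:11131423-11131482, mm9, plus strand), so no level is given for it.

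Cyclin A2, encoded by Ccna2, had the largest SE of the 8 tested members. Its 1 probe (chr3:36463978-36464037, mm9, minus strand) read 13.18, 11.90, 13.24 and 13.22 in DMSO, so that replicate 2 lay far below the other DMSO arrays. It read 13.24, 13.18, 13.58 and 13.41 with cordycepin alone. With LPS it read 12.63, 12.82, 12.84 and 13.16 in vehicle and 13.11, 13.00, 13.50 and 13.65 with the drug. On each day LPS+cordycepin was above LPS+DMSO, by 0.19 to 0.66, although the ranges of the 2 conditions overlapped. The fitted difference was 0.46 (SE 0.25, limma adjusted p = 0.273). The spread is shared by all conditions in this fit, and without DMSO replicate 2 the SE of the same difference was 0.15 and the adjusted p 0.0404. In resting cells the difference was 0.47 with that array and 0.14 without it (adjusted p = 0.257 and 0.648). Between LPS+DMSO and DMSO it was -0.03 with the array and -0.36 without it (adjusted p = 0.973 and 0.171).

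Cdc25a fell with cordycepin under both conditions. Its 1 probe read 11.51, 10.95, 11.68 and 11.54 in DMSO and 11.65, 11.58, 11.68 and 11.53 in LPS+DMSO. It read 11.01, 11.08, 10.85 and 11.13 in cordycepin and 11.21, 11.02, 11.14 and 11.05 in LPS+cordycepin. With LPS the 4 drug-treated arrays were all below the 4 vehicle arrays. Without LPS, 3 of the 4 DMSO arrays were above every cordycepin array, and DMSO replicate 2 lay among them. The decrease in LPS-treated cells was 1.42-fold, a log2 change of -0.50 (SE 0.13, 95% interval -0.78 to -0.23, limma adjusted p = 0.0109, lower on 4 of 4 days), and each day alone gave a change between -0.55 and -0.44. In resting cells the log2 change was -0.40 (SE 0.13, adjusted p = 0.0446, lower on 3 of 4 days), and it was -0.56 without DMSO replicate 2 (SE 0.09, adjusted p = 2.89e-04). That array was singled out by its low values in these genes, so the smaller adjusted p is not separate support. The conditions ranked LPS+DMSO, DMSO, LPS+cordycepin and cordycepin. The first pair differed by 0.18 and the last pair by 0.09, and neither passed the test (adjusted p = 0.423 and 0.831).

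The Cdc25a decrease in LPS-treated cells was -0.49 within slide 1 and -0.51 within slide 2 (limma adjusted p = 0.237 and 0.0461), and it passed with the replicate block (adjusted p = 0.0124). It missed the threshold when replicate 1, 3 or 4 was left out in all conditions (adjusted p = 0.0679, 0.0602 and 0.0634, with changes of -0.52, -0.49 and -0.51). In resting cells it was -0.19 within slide 1, which holds DMSO replicate 2, and -0.62 within slide 2 (adjusted p = 0.667 and 0.0278). In 16 of 20 fits with an array or a whole day left out the resting-cell call did not hold, with adjusted p of up to 0.377.

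**Figure D2:**
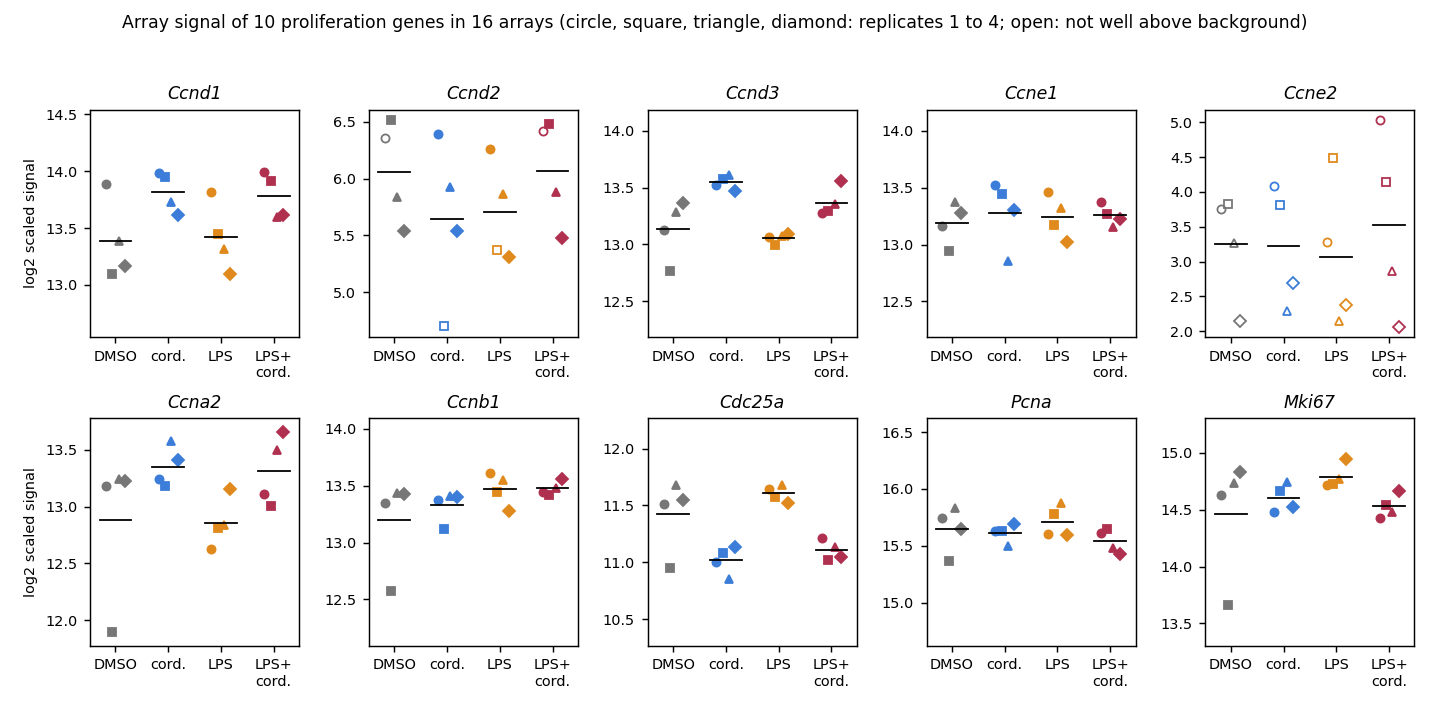
Log2 scaled signal (y axis) of the brightest probe of each of the 10 genes on all 16 arrays by condition (x axis), with a marker shape for each replicate and a line at the mean; open markers are not well above background. Cdc25a is lower on all LPS+cordycepin arrays (11.02 to 11.21) than on all LPS+DMSO arrays (11.53 to 11.68), and DMSO replicate 2 (square) is the lowest DMSO array for every gene that was tested.

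Cyclin B1, encoded by Ccnb1, was covered by 3 probes along the gene. The brightest, nearest the 3′ end (A_55_P2065671, chr13:101548722-101548781, mm9, minus strand), read 13.35, 12.57, 13.44 and 13.42 in DMSO and 13.38, 13.12, 13.41 and 13.40 in cordycepin. It read 13.61, 13.44, 13.55 and 13.28 in LPS+DMSO and 13.45, 13.42, 13.48 and 13.56 in LPS+cordycepin. The conditions overlapped apart from LPS+cordycepin against cordycepin, where the difference was 0.15 (SE 0.16, limma adjusted p = 0.735). The other 2 probes lie further upstream in the gene, and their 60 bases are given because they passed the test where the brightest did not.

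Ccnb1 probe A_55_P1952256 (chr13:101551224-101551283, mm9, minus strand): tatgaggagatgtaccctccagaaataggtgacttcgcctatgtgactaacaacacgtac

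Ccnb1 probe A_55_P2128668 (chr13:101553449-101553508, mm9, minus strand): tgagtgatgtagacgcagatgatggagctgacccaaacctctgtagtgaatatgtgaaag

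Probe A_55_P2128668 read 10.21, 9.65, 10.36 and 10.55 in DMSO and 10.85, 10.67, 10.71 and 10.72 in cordycepin, without overlap. Probe A_55_P1952256 read 10.84, 10.32, 10.95 and 11.08 in DMSO and 11.46, 11.19, 11.25 and 11.24 in cordycepin, again without overlap. Tested on their own in all kept probes, they rose with cordycepin in resting cells by 0.55 (SE 0.16, limma adjusted p = 0.0271) and 0.49 (SE 0.16, adjusted p = 0.0458), against 0.13 (SE 0.16, adjusted p = 0.660) for the brightest. Without DMSO replicate 2 the 3 changes were 0.37, 0.33 and -0.08, and none passed the test (adjusted p = 0.0541, 0.118 and 0.675). With the replicate block A_55_P2128668 kept its call (adjusted p = 0.0413) and A_55_P1952256 lost it (adjusted p = 0.0630). With LPS alone A_55_P1952256 read between 11.22 and 11.35, above all DMSO arrays, and it was 0.49 higher (SE 0.16, limma adjusted p = 0.0492). That call was lost without DMSO replicate 2 (adjusted p = 0.118) and with the replicate block (adjusted p = 0.0644). For A_55_P2128668 the LPS difference was 0.40 (SE 0.16, adjusted p = 0.122), and for the brightest probe 0.27 (adjusted p = 0.321). Differences between probes within an array do not depend on how the arrays were scaled. The excess of the upstream probes over the brightest was 0.42 and 0.36 with cordycepin in resting cells, on 4 of 4 days for both. By a two-sided exact permutation test of each, p was 0.0286, the smallest that 4 against 4 arrays allow, and the adjusted p over the 20 probe differences of this kind was 0.286. This comparison was chosen after the values were seen. In LPS-treated cells the corresponding excesses were 0.08 and -0.01.

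**Figure D3:**
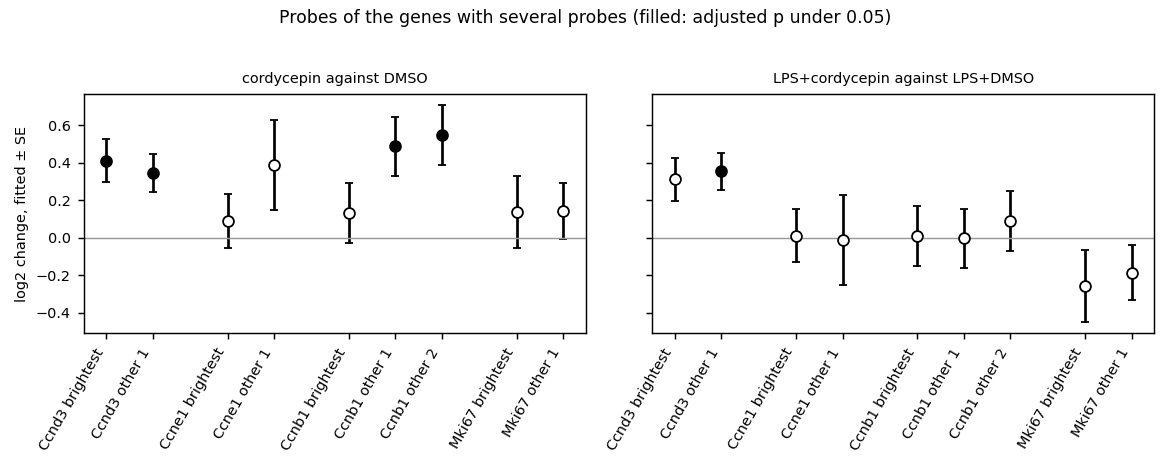
Fitted log2 change with its SE (y axis) for each probe of the 4 tested genes with several probes (x axis, brightest probe first), for cordycepin against DMSO (left) and LPS+cordycepin against LPS+DMSO (right); filled points have an adjusted p under 0.05. In resting cells the 2 upstream Ccnb1 probes lie at 0.49 and 0.55 and the brightest at 0.13, while both Ccnd3 probes lie at 0.34 to 0.41.

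Pcna and Mki67 are the usual markers of dividing cells, and neither passed the test in any comparison. Pcna, the sliding clamp of DNA polymerase, read 15.74, 15.37, 15.83 and 15.65 in DMSO and 15.63, 15.63, 15.50 and 15.69 with cordycepin alone (chr2:132075022-132075054, a 33-base annotated stretch, mm9, minus strand). With LPS it read 15.60, 15.78, 15.87 and 15.59 in vehicle and 15.62, 15.65, 15.48 and 15.43 with the drug. The conditions overlapped, and the 95% interval of the change with cordycepin in LPS-treated cells was -0.39 to 0.06.

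Mki67 encodes the Ki-67 protein, which coats mitotic chromosomes. Its brighter probe (chr7:142881591-142881650, mm9, minus strand) read 14.63, 13.67, 14.74 and 14.83 in DMSO and 14.48, 14.67, 14.74 and 14.52 with cordycepin alone. With LPS it read 14.71, 14.73, 14.77 and 14.94 in vehicle and 14.43, 14.54, 14.48 and 14.67 with the drug. With LPS, all 4 drug-treated arrays were below the 4 vehicle arrays, and the difference of means was -0.26 (SE 0.19, limma adjusted p = 0.437). Without DMSO replicate 2, an array outside this comparison, the SE was 0.09 and the adjusted p 0.0454. In resting cells the difference was 0.14 with that array and -0.13 without it. A second Mki67 probe gave -0.19 in LPS-treated cells (SE 0.15, limma adjusted p = 0.473). Without DMSO replicate 2 this probe did not pass the test either (SE 0.07, limma adjusted p = 0.0811). With LPS its ranges overlapped, 14.28 to 14.49 with the drug and 14.44 to 14.61 in vehicle.

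Counted over the 8 tested members, cordycepin in LPS-treated cells lowered 1 (Cdc25a) and raised 0, where it lowered 8.45% and raised 10.8% of all genes tested. The members' median change was 0.01 and that of all genes 0.03. In resting cells cordycepin raised 1 (Ccnd3) and lowered 1 (Cdc25a), where it raised 8.23% and lowered 7.55% of all genes, with medians of 0.13 and 0.04, which were -0.03 and 0.04 without DMSO replicate 2. Counts of 1 or 2 among 8 are near these shares. At an unadjusted p under 0.05, 2 members differed in the first comparison and 3 in the second. The 2 comparisons used different arrays, with 1 shared estimate of the spread.

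LPS alone changed 0 of the 8 members by limma on their brightest probes, where 14.9% of all genes changed, and 0 members had an unadjusted p under 0.05. The methods' t-test with Benjamini-Hochberg adjustment also called 0. The members' median change was 0.06 and that of all genes -0.04, and without DMSO replicate 2 these were -0.03 and -0.05. By brightest probe, the highest fitted change was that of Mki67, 0.32 (SE 0.19, adjusted p = 0.325), which was 0.05 without DMSO replicate 2. In cordycepin-treated cells LPS also changed 0 of 8, where 8.15% of all genes changed, and the LPS response differed between drug and vehicle for 0 of 8, where it differed for 0.554% of all genes. No member had an unadjusted p under 0.05 in either. The intervals allow changes of a size that was not detectable with 4 arrays, for Cdc25a from -0.09 to 0.46 with LPS alone. No member reached a 2-fold change with an adjusted p under 0.05 in the 5 comparisons, where 4.59% of all genes did with LPS alone, 7.46% with cordycepin in LPS-treated cells, 5.55% with cordycepin in resting cells, 2.91% with LPS in drug-treated cells and 0.365% in the difference between the LPS responses.

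**Figure D4:**
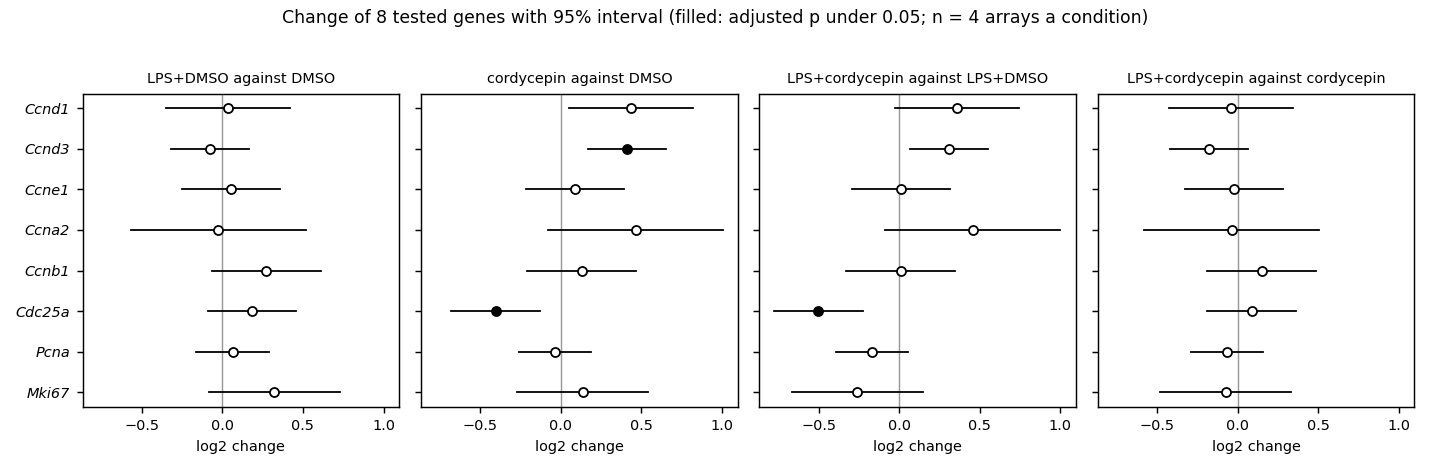
Fitted log2 change (x axis) with its 95% interval for the 8 tested genes (y axis) in 4 comparisons, 4 arrays a condition; filled points have an adjusted p under 0.05. Cdc25a lies at -0.40 and -0.50 in the 2 cordycepin comparisons and Ccnd3 at 0.41 in resting cells, while no gene is filled in the 2 LPS comparisons.

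The rest of the cell cycle machinery was followed in 10 lists of 154 genes, of which 140 were tested. With LPS alone 10 were higher and 7 lower by limma (7.14% and 5.00%), where 5.14% and 9.8% of all genes tested were. With cordycepin in LPS-treated cells 7 were higher and 8 lower (5.00% and 5.71%), where 10.8% and 8.45% of all genes were. In resting cells 7 were higher and 6 lower with cordycepin (5.00% and 4.29%), where 8.23% and 7.55% of all genes were. Without DMSO replicate 2 the counts with cordycepin became 9 and 14 in LPS-treated cells, and 6 and 15 in resting cells. The median change with cordycepin in resting cells was then -0.01 in place of 0.13. With LPS alone 10 were then higher and 10 lower, with a median change of -0.03 in place of 0.09. Changes of single genes below are given with that array included. The LPS response of 0 of the 140 genes differed between drug and vehicle.

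The largest LPS changes in these lists were those of Btg2, Plk2 and Plk3. They belong to a list of antiproliferative immediate early genes, which was chosen with earlier results of these data known. Cdkn1a, which encodes the CDK inhibitor p21, was the 1 gene called among 5 tested CDK inhibitors. Its level, in log2 scaled signal, was 12.03 ± 0.31 (SD, n = 4) in DMSO and 12.64 ± 0.09 with cordycepin alone, and with LPS it was 13.46 ± 0.15 in vehicle and 13.99 ± 0.20 with the drug. It rose by 1.42 with LPS (SE 0.14, limma adjusted p = 3.87e-06), by 0.61 with cordycepin in resting cells (adjusted p = 0.00684) and by 0.54 with cordycepin in LPS-treated cells (adjusted p = 0.0134). Among 9 antiproliferative immediate early genes, LPS raised 4 and lowered 1, with 4 not called, where it raised 5.14% and lowered 9.8% of all genes. Btg2, an antiproliferative cofactor of mRNA deadenylation, rose by 3.66, and the kinases Plk2 and Plk3 by 3.08 and 2.39. With cordycepin in LPS-treated cells these 3 fell by 0.86, fell by 1.25 and fell by 0.91 (adjusted p = 3.94e-04, 4.73e-04 and 1.02e-04).

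Among other regulators of the cycle, Wee1, a kinase that inhibits Cdk1, fell by 0.49 with LPS (limma adjusted p = 0.0239), and it fell by 0.44 with cordycepin in resting cells (adjusted p = 0.0412). Of 12 tested genes of cyclin degradation, Fbxo5, an inhibitor of the anaphase-promoting complex, fell by 1.12 with LPS, and the F-box gene Fbxo31 fell by 0.62. With cordycepin Fbxo31 had log2 changes of -0.79 in resting and -0.39 in LPS-treated cells, and Fbxw7, whose product targets cyclin E for degradation, fell by 0.76 in resting cells (adjusted p = 0.00244). Of 7 CDKs and partners of their activating kinase, cordycepin raised Ccnh (cyclin H) by 0.49 and 0.73 in resting and LPS-treated cells, and no CDK was called. Of 10 other cyclins, LPS raised Ccnl1 (1.1 on the log2 scale), Ccnj fell by 0.46, and cordycepin raised Ccng1 by 0.34 and 0.59.

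Genes of DNA synthesis and mitosis, which the members Pcna, Ccna2, Ccnb1 and Mki67 accompany, were largely not called. Of 31 tested mitosis genes 0 were called with LPS, where 14.9% of all genes were. With cordycepin in LPS-treated cells 0 were called, where 10.8% of all genes were higher and 8.45% lower. In resting cells 1 mitosis gene, the topoisomerase gene Top2a, rose with cordycepin by 0.43 (limma adjusted p = 0.0416), where 8.23% of all genes rose. Counts by list include DMSO replicate 2. Of 25 DNA synthesis genes, 0 were called with LPS. With cordycepin Chaf1a, a histone chaperone subunit, fell by 0.54 in resting cells (adjusted p = 0.00890) and fell by 0.65 in LPS-treated cells (adjusted p = 0.00182). Of 23 replication licensing genes, LPS raised Cdc45 and Orc1 by 0.49 and 0.43, and cordycepin raised Orc4 by 0.71 and 0.93. Of 13 E2F and pocket protein genes, LPS lowered E2f2 and E2f6 (log2 changes of -0.66 and -0.50) and raised E2f5 by 0.52. Cordycepin raised Rbl2 by 0.68 and Tfdp2 by 0.47 in LPS-treated cells, and Rb1 fell by 0.31 with it in resting cells.

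**Figure D5:**
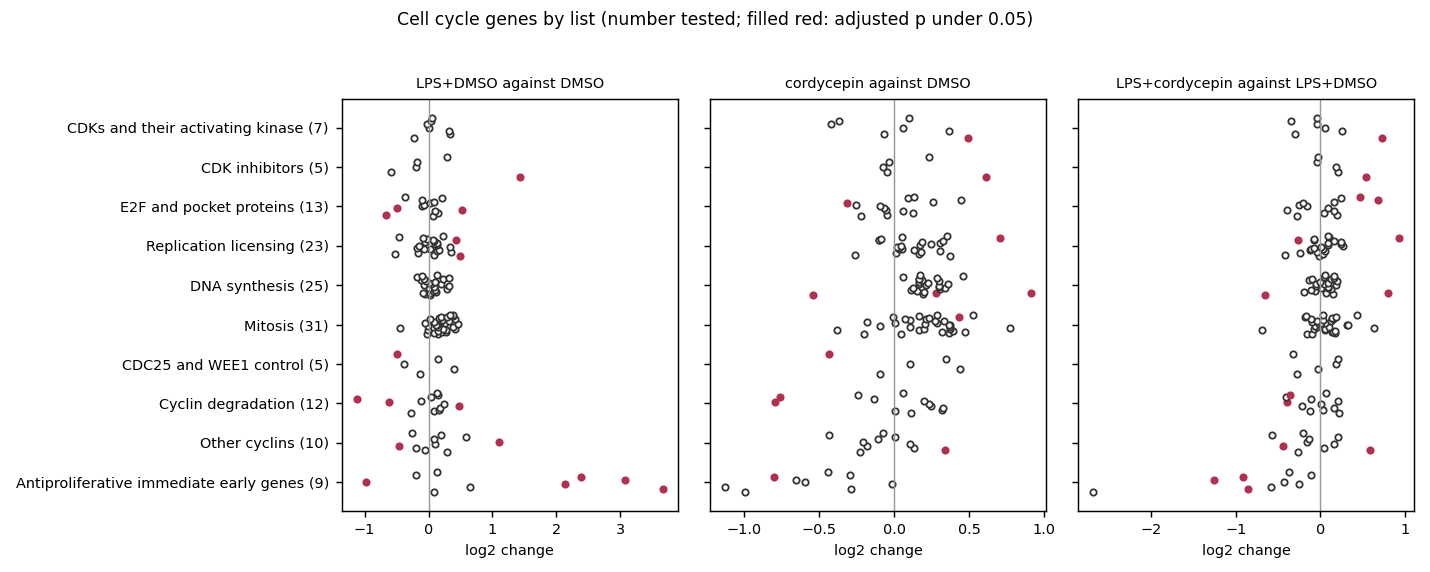
Fitted log2 change (x axis, a separate scale in each panel) of the 140 tested cell cycle genes by list (y axis, number tested in brackets) in 3 comparisons; filled red points have an adjusted p under 0.05. With LPS the points furthest right are antiproliferative immediate early genes, led by Btg2 at 3.66. The mitosis and DNA synthesis lists hold no filled points with LPS and have medians of 0.20 and 0.03, DMSO replicate 2 included.

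Among the genes whose log2 signal followed that of the changed members most closely over the 16 arrays were, for Cdc25a, Fignl1 (Pearson's r 0.926) and Dsn1 (0.922), and for Ccnd3, Tmem109 (0.956) and Mrpl36 (0.955). These values describe the 16 arrays, which share 4 conditions, 4 days and 2 slides.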

How the data were processed

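RNA of 16 cultures was hybridised to Agilent 1-colour mouse arrays. The deposited scanner files hold, for each spot, an intensity that the authors obtained with Agilent Feature Extraction 10.10.1.1, after background subtraction. The authors' deposited value table holds normalized log2 values, with the method not given in the sources used here, and served as an alternative. Signals were log2-transformed, outlier spots were left out, and arrays were scaled to the 75th percentile of 18064 probes that each of the 16 arrays showed well above background. A probe was used if some condition had it well above background in 4 of 4 arrays, and a gene was read by its brightest probe. Condition means were fitted with limma 3.58.1 (R 4.3.3), p was adjusted by Benjamini-Hochberg over 15877 genes, and a call needs an adjusted p under 0.05. Names and mm9 positions are those of the files. Python 3.11.15 drew the plots.

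The members and gene lists were chosen with earlier results of these data known. The text names all members, at most 3 called genes with the largest change per list and comparison, and the 3 genes most correlated with a called member. Some genes that this rule names are not reported here. The series' design text and the labels tie a replicate number to a culture day, so the numbers pair the samples. Residuals of the same number correlated by 0.197 on average (-0.059 to 0.440, over 0.1 in 20 of 24 pairs), against 0.176 for other numbers within a slide and -0.187 between slides. Alternatives covered scaling, background, filters, probes, blocks, tests and left-out arrays. The procedure was tested on simulated data with independent noise on each array. Those data held no slide or day effect and no array like DMSO replicate 2, so the test does not cover them. The number of arrays limits the precision.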

Additional observations from a re-analysis of the deposited data

Results flagged for a closer look

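Among 36 sets of 4 arrays (9 genes in 4 conditions), 3 held an array far from the other 3 by Dixon's ratio at its 95% critical value, where chance flags about 1 in 20. Ccna2 was at 11.90 in DMSO replicate 2, against 13.18 to 13.24 in the other DMSO arrays. Ccnb1 was at 12.58 in DMSO replicate 2, against 13.35 to 13.44, and at 13.12 in cordycepin replicate 2, against 13.38 to 13.41. All 3 values came from the same culture day, whose LPS-treated cultures held no such value. The cause was not tested.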

How the results depend on the processing

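Counts of called members, 1 in LPS+cordycepin against LPS+DMSO and 2 in cordycepin against DMSO, were small and moved with the settings, while by the brightest probe of each gene 0 members were called in the other 3 comparisons. When every probe was tested on its own, a second Ccnb1 probe was called with LPS alone (0.49, adjusted p = 0.0492). In LPS+cordycepin against LPS+DMSO the count was 0 at 2-fold, at an adjusted p under 0.01, with scaling to spiked-in controls, without the filter on dim probes and within slide 1. It was 2 with the mean of a gene's probes, the replicate block, the slide as a block and within slide 2. It was also 2 with only the groups compared, by Student's t-test after Benjamini-Hochberg adjustment, and with the replicate block on every probe. It ranged from 0 to 4 as arrays were left out, with 4 without DMSO replicate 2. In cordycepin against DMSO it was 1 with quantile normalization, with median scaling and within slide 2. It was 0 at 2-fold, at an adjusted p under 0.01, with spiked-in controls, the authors' value table and no filter. The count was also 0 within slide 1, with only the groups compared and by Student's t-test, and 0 to 2 with arrays left out. With the replicate block as the paired analysis, Ccnd1 was added in both cordycepin comparisons (adjusted p = 0.0403 and 0.0183), and no other member's call changed by brightest probe. Of 1544 values of single members under the alternatives, 1482 kept their side of the threshold, 42 lost a call, 20 gained it and 0 reversed. Most of these values had no call to lose, and the 42 losses all fell on the few calls of Cdc25a and Ccnd3. In 115 values the sign changed with no call on either side, and these are counted as kept. Spiked-in scaling moved the median of all genes to -0.12 in LPS-treated and 0.10 in resting cells, and Cdc25a then differed by -0.66 and -0.34. The combined settings on single probes were added after seeing the data.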
